A study of Mus musculus with 18 samples.

Results

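*Max* and 9 genes of the Myc network (*Myc*, *Mycn*, *Mycl*, *Mxd1*, *Mxd3*, *Mxd4*, *Mxi1*, *Mga* and *Mnt*) were followed through 18 libraries of mouse oocytes, 3 in each of 6 groups. The 10 genes were found by symbol among the 28252 genes listed with TPM values (a transcript level scaled for gene length and library size), and their read counts were taken by Ensembl identifier from the 53715 genes of the count table. They were chosen by the values of *Max*, which differed between primary and primordial follicles *in vivo* and between the *in vitro* and *in vivo* groups of primary follicles, and for those contrasts the values of the 10 genes are a description without a test. All mice were F1 hybrids of C57Bl/6j and CBA/J. In the *in vivo* group, oocytes of primordial and primary follicles came from ovaries of 14-day-old mice. In the *in vitro* group, they came from ovaries removed at day 7 and cultured for 7 days in medium with 10% fetal bovine serum, insulin, transferrin, selenium and recombinant FSH. These oocytes were cut from stained, fixed sections by laser capture microdissection, and the RNA of the caps was pooled by stage. Of the microdissected groups, primary *in vivo* was made from the fewest oocytes and primordial *in vitro* from the most. Metaphase II (MII) oocytes, the mature eggs, were collected from superovulated adult females (*in vivo*) or from secondary follicles of cultured ovaries that were grown in alginate for 12 more days and given hCG (*in vitro*), with 10 oocytes per tube. The text of the methods does not tie libraries to separate animals, so p-values measure the spread between libraries.

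MAX is the common partner of a network of basic helix-loop-helix leucine zipper proteins. MYC, MYCN and MYCL need MAX to bind the DNA element called the E-box and activate genes of growth and ribosome production, whereas MXD1, MXD3, MXD4, MXI1 and MNT pair with MAX at the same element and recruit SIN3 co-repressors. MGA also pairs with MAX and belongs to a Polycomb complex, PRC1.6, that silences germ cell and meiosis genes in embryonic stem cells.

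*Max* (ENSMUSG00000059436) lies on chromosome 12 (GRCm38, 76937269 to 76962201, minus strand), and the annotated gene *Gm47218* overlaps it on the same strand. The promoters of *Max*, *Mnt* and *Mxd4* are shown because each holds the CACGTG form of the E-box, the element that MAX dimers bind. These letters read the same on both strands. Promoter windows of 300 bases, from 250 before to 50 after a RefSeq start site (GRCm38.p6), were at hand for 9 of the 10 genes, and the element was found in these 3 of the 9 (33.3%), against 2187 of all 27025 genes with a window (8.09%). In *Max* the element spans the RefSeq start site of the window, from position -3 to 3 with no position 0. The gene bounds given above put the start further downstream, at 76962201 on the minus strand. The element begins at -123 in *Mnt* and at -219 in *Mxd4*. A match is a description of the letters, since no binding was measured. The windows are chr12:76962199-76962498 (minus strand) for *Max*, chr11:74830674-74830973 (plus strand) for *Mnt* and chr5:34187661-34187960 (minus strand) for *Mxd4*, printed 5′ to 3′ with the E-box in capitals.
Max: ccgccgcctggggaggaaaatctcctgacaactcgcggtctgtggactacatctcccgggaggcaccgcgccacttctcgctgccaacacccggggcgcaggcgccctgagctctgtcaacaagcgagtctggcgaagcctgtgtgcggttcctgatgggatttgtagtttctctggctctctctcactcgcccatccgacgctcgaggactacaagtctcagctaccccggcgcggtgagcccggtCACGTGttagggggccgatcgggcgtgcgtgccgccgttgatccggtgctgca
Mnt: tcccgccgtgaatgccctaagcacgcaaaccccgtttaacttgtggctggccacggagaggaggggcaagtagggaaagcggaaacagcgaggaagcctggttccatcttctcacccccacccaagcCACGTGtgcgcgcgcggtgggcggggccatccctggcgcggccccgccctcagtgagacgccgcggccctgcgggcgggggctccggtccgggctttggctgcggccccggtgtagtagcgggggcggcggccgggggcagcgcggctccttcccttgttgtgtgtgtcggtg
Mxd4: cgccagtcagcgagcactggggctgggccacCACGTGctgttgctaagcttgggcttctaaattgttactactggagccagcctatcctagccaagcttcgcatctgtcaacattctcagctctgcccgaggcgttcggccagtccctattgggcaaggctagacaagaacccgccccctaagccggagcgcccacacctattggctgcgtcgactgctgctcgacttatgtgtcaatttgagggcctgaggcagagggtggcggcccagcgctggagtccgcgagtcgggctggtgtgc

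Microdissected libraries held 15149564 to 29205503 counts each (12 libraries), and MII libraries 7334817 to 9978830 (6 libraries). A floor of 3 reads was 0.103 to 0.198 CPM (reads scaled by library size) in the former and 0.301 to 0.409 CPM in the latter, and it covers counting error only. Many genes were high in one microdissected library and nearly absent from another of the same group. Among genes that reached 100 reads in some library of a group, 45% (primordial *in vivo*), 51.4% (primordial *in vitro*), 60.1% (primary *in vivo*) and 29% (primary *in vitro*) stayed at or under 3 reads in another one of that group, against 0.864% and 0.432% in the MII groups. The network genes were among them, with 3 of 6, 6 of 9, 4 of 5 and 2 of 8 genes in the microdissected groups and none in the MII groups. Between 8 and 10 of 10 oocyte markers passed 3 reads in every library. Granulosa cell markers passed in 3 to 10 of 11 in the microdissected libraries, and markers of stroma and theca in 4 to 8 of 8. In these bulk libraries, fewer cells of a type and less RNA per cell cannot be told apart.

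*Max* was either among the more abundant transcripts of a microdissected library or close to absent. In oocytes of primordial follicles *in vivo* it had 13113, 8823 and 18579 reads, or 530.2, 348 and 700.3 TPM. In oocytes of primary follicles *in vivo* it had 1, 8 and 2 reads, none above 0.304 TPM. In oocytes of primary follicles *in vitro* it had 5471, 28504 and 12121 reads, or 220.1, 1048 and 419 TPM. All 3 *in vivo* primary libraries lay below all libraries of both other groups. The primordial *in vitro* libraries were split, with 0 and 14 reads in replicates 1 and 2 and 20660 reads, or 892 TPM, in replicate 3. Over the 12 libraries, *Max* thus had 5471 to 28504 reads in 7 and 0 to 14 reads in 5, with nothing between. In the 7 libraries it ranked 137 to 751 by TPM among all listed genes.

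**Figure D1:**
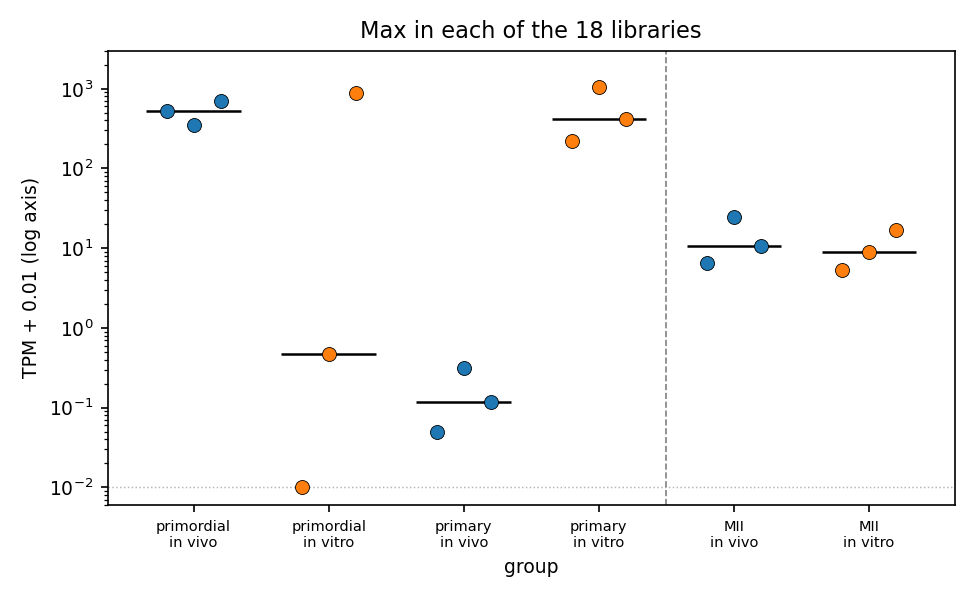
Points give the TPM of *Max* in each library, plus 0.01, on a log axis, for the 6 groups (blue *in vivo*, orange *in vitro*), and bars mark the group medians. The dotted line marks 0 TPM and the dashed line separates the MII libraries, which were prepared with other kits. The 3 primary *in vivo* libraries and 2 of the primordial *in vitro* libraries lie under 1 TPM, and the other 7 microdissected libraries lie from 220.1 to 1048 TPM.

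MII oocytes held *Max* at a steadier level, with 83, 267 and 131 reads *in vivo* (6.49, 24.9 and 10.8 TPM) and 80, 113 and 198 reads *in vitro* (5.26, 8.92 and 16.9 TPM). The order of the group means was primary *in vitro* (562 TPM ± 432, SD, n = 3), primordial *in vivo* (526 ± 176), primordial *in vitro* (298 ± 515), MII *in vivo* (14.04 ± 9.62), MII *in vitro* (10.4 ± 5.94) and primary *in vivo* (0.151 ± 0.137). Each of the first 5 groups overlapped its neighbour in this order, and primary *in vivo* did not overlap MII *in vitro*. MII and microdissected oocytes differ in stage, extraction and library kit, which cannot be told apart, so no test compared them.

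The 2 contrasts that chose *Max* are given as values. For primary minus primordial *in vivo*, the log2 fold change of the edgeR fit was -11.83 (approximate SE 2.69), and the mean normalized count was 0.163 CPM ± 0.139 (SD, n = 3) against 619 ± 325. For primary *in vitro* minus *in vivo*, it was 11.77 (SE 2.68), from 0.163 CPM ± 0.139 to 595 ± 559. Of the 10 network genes, the groups did not overlap for *Max* and *Mga* in the former, as for 6.39% of the 15317 genes fitted. In the latter they did not overlap for *Max* and *Mycn*, as for 9.99% of those genes. Since *Max* was chosen on these contrasts, nothing is read from the counts.

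Transcripts of blood were highest in the primary *in vivo* libraries, where *Max* was low. The summed level of 5 blood and immune markers was 1157 to 7503 TPM in the primary *in vivo* libraries, 0 to 175 TPM in primordial *in vivo*, 0 to 2.02 TPM in primordial *in vitro* and 0 to 174 TPM in primary *in vitro*. Of these markers, 1 or 2 passed 3 reads in each primary *in vivo* library and at most 1 in each other microdissected library. *Max* was also low in replicates 1 and 2 of primordial *in vitro* (0 and 14 reads), where the summed level was 0 and 2.02 TPM. The leukocyte markers *Ptprc* and *Adgre1* were at 0 reads in all 12 microdissected libraries, so the sum came from the hemoglobin genes *Hbb-bs* and *Hba-a1* and from *Cd68*. In primary *in vivo* the sum was *Hba-a1* alone in replicate 1 (7503 TPM) and *Hbb-bs* alone in replicate 3 (1157 TPM). The summed level of the 10 oocyte markers was 34.1 to 86.7 TPM in primordial *in vivo* and 211 to 498 TPM in primary *in vivo*, against 81.5 to 1026 TPM in primordial *in vitro* and 324 to 351 TPM in primary *in vitro*. Granulosa cell markers (11 genes) summed to 357 to 567 TPM in primary *in vivo* and 670 to 2352 TPM in primary *in vitro*. Those groups did not overlap. The granulosa sum was 24.2 to 627 TPM in primordial *in vivo* and 22.5 to 1012 TPM in primordial *in vitro*. The part of the blood, oocyte and granulosa cell markers in the *Max* values was not tested.

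**Figure D2:**
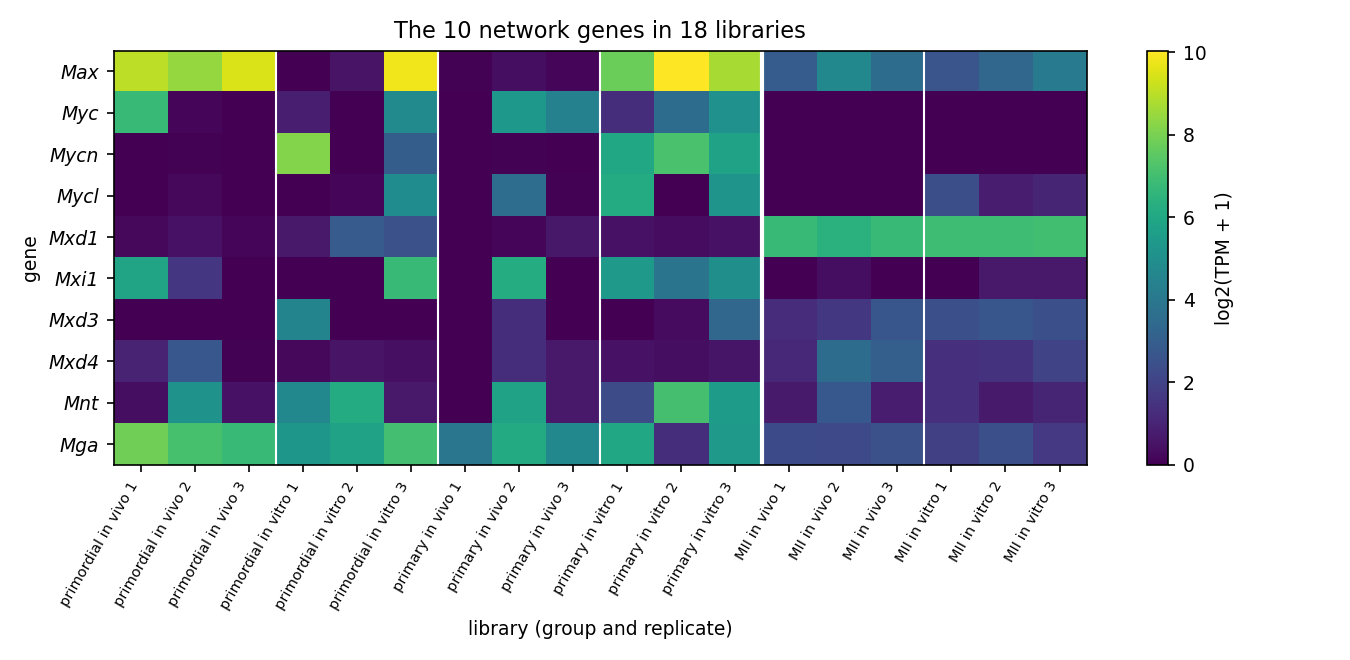
Rows are the 10 genes, columns the 18 libraries by group and replicate, and colours give log2(TPM + 1). *Mga* is above 0 in all 18 libraries, *Max* changes between neighbouring columns of the primordial *in vitro* group, and *Mxd1* is high in the 6 MII libraries, where *Myc* and *Mycn* are at 0.

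The MYC paralogs, the activating partners of MAX, were present in some microdissected libraries and, apart from *Mycl*, had no read in MII oocytes. *Mycn*, which drives growth of progenitor cells, was above 1 read only in the *in vitro* groups. It had 0, 1 and 0 reads in both *in vivo* groups, 4497, 0 and 143 reads in primordial *in vitro* (289, 0 and 6.74 TPM) and 1418, 3543 and 1437 reads in primary *in vitro* (62.3, 142 and 54.3 TPM). The 3 primary *in vitro* libraries lay above all *in vivo* libraries, whereas 1 primordial *in vitro* library was at 0. Against the single *in vivo* read, the ratio of reads summed over each group, scaled by library size, was 5230 at the primordial stage. Its 95% exact counting interval was 938 to 206618, which covers counting error only. At the primary stage, in a contrast that served to choose the genes, the ratio was 4488 and is given without an interval. Of the 4640 primordial *in vitro* reads, 4497 came from replicate 1, and without it the ratio was 208 (36.8 to 8278). The ratio of the group mean CPMs at the primordial stage, which weights libraries equally, was 8906.

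*Myc*, the founding member, had 2071, 2 and 0 reads in primordial *in vivo* and 10, 0 and 477 in primordial *in vitro*. It had 0, 797 and 284 reads in primary *in vivo* and 28, 222 and 718 in primary *in vitro*, at most 40.2 TPM. Its groups overlapped in every comparison of microdissected oocytes. *Myc* and *Mycn* were at 0 reads in all 6 MII libraries, where 3 reads are 0.301 to 0.409 CPM.

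*Mycl* had 0, 5 and 0 reads in primordial *in vivo*, 0, 3 and 743 in primordial *in vitro*, 0, 322 and 1 in primary *in vivo* and 1963, 0 and 1169 in primary *in vitro*. It was high in 4 of 12 libraries, 3 of them *in vitro*. In MII oocytes it had no read in the 3 *in vivo* libraries and 74, 10 and 14 reads *in vitro* (4.34, 0.703 and 1.06 TPM).

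**Figure D3:**
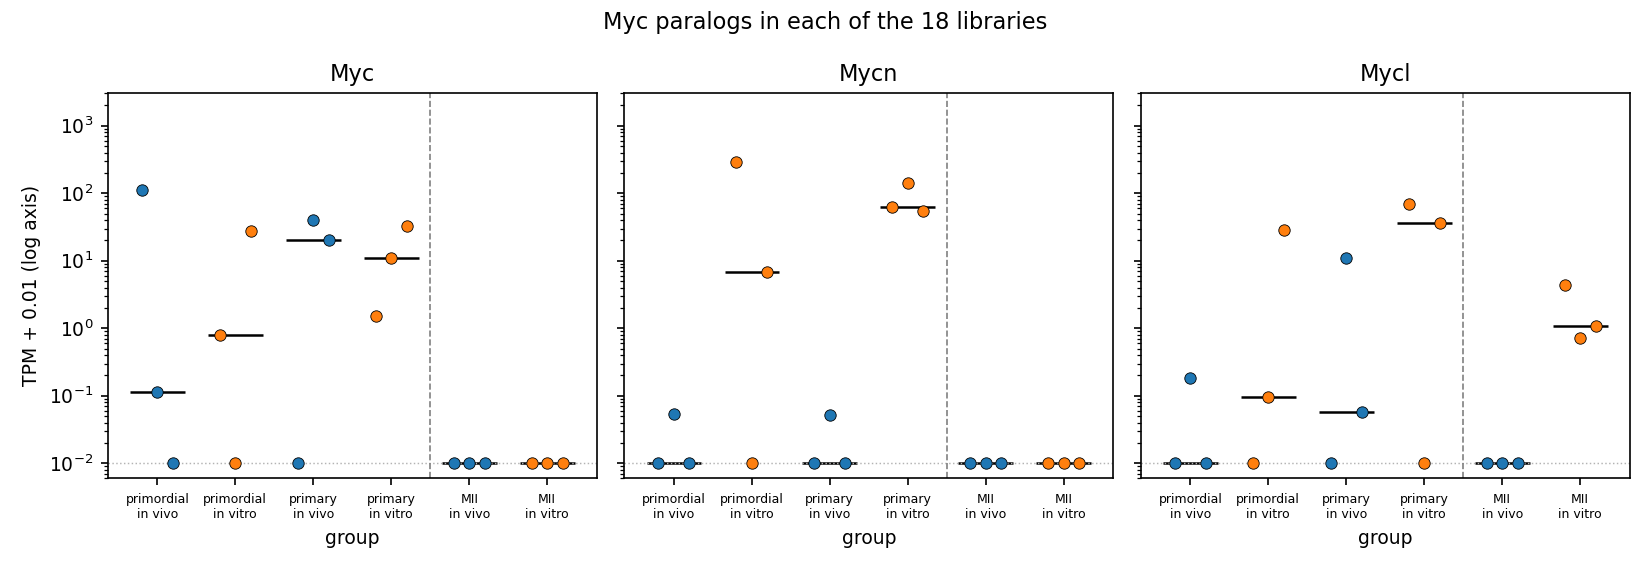
Each panel plots the TPM of a *Myc* paralog, plus 0.01, on a log axis for the 18 libraries (blue *in vivo*, orange *in vitro*), with bars at the group medians, a dotted line at 0 TPM and a dashed line before the MII groups. *Mycn* lies from 54.3 to 142 TPM in the primary *in vitro* libraries and at most 0.043 TPM *in vivo*, and *Mycl* is above 0 in all MII *in vitro* libraries and at 0 in all MII *in vivo* libraries.

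Among the repressive partners, *Mxd1* was the leading member of the MII libraries. It had 111, 84.8 and 110 TPM in MII *in vivo* and 119, 120.2 and 127 TPM in MII *in vitro*, above *Max* and all other network genes in each. In the microdissected libraries *Mxd1* stayed at or under 6.34 TPM. Its highest values there were 6.34 and 4.55 TPM (382 and 207 reads) in replicates 2 and 3 of primordial *in vitro*, and the other 10 microdissected libraries had 0 to 23 reads. *Gm44292* overlaps *Mxd1* on the same strand.

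*Mxi1*, another MAX-binding repressor, was also uneven, with 2231, 78 and 0 reads in primordial *in vivo*, 0, 0 and 4052 in primordial *in vitro* and 0, 3031 and 0 in primary *in vivo*. The primary *in vitro* libraries were closer together, with 1633, 573 and 1409 reads (42.1, 13.5 and 31.2 TPM). At most 12 reads were found in an MII library.

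*Mnt*, the broadly expressed repressor of the family, had 9, 1123 and 14 reads in primordial *in vivo*, 544, 2775 and 18 in primordial *in vitro*, 0, 1834 and 14 in primary *in vivo* and 130, 4700 and 1718 in primary *in vitro*. The highest library of each group had 1123 to 4700 reads, and the groups overlapped. In MII oocytes *Mnt* had 11 to 80 reads, at most 5.80 TPM.

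*Mxd3* and *Mxd4* were low. *Mxd3* was at 0 in 8 of 12 microdissected libraries, exceeded 100 reads in 1 primordial *in vitro* library (250 reads, 22.4 TPM) and 1 primary *in vitro* library (169 reads, 8.87 TPM), and had 12 to 45 reads in every MII library. *Mxd4* had at most 338 reads (5.65 TPM) in a microdissected library and 37 to 270 reads in MII libraries. Both overlap an annotated gene on the opposite strand, *Prelid1* and *Gm42846*, as does *Mxi1* (*Gm10197* and *AC133451.2*), and it is not stated whether the counting used strand.

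*Mga* was the only member with at least 100 reads in all 18 libraries. It had 24180, 14856 and 12654 reads (229, 137 and 112 TPM) in primordial *in vivo*, 2797, 7085 and 12735 (38.7, 54.2 and 129 TPM) in primordial *in vitro*, 1550, 7678 and 1915 (14.5, 68.6 and 24.4 TPM) in primary *in vivo* and 6837, 172 and 5026 (64.5, 1.48 and 40.8 TPM) in primary *in vitro*. All primordial *in vivo* libraries lay above all primary *in vivo* libraries, with a log2 fold change of -2.16 (SE 1.83), in a contrast used to choose the genes and so without a test. In MII oocytes *Mga* had 107 to 242 reads, or 2.14 to 4.66 TPM.

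The effect of ovary culture on oocytes of primordial follicles was tested for all 10 genes, and none passed. The quasi-likelihood test of edgeR, adjusted by Benjamini-Hochberg, called (adjusted p under 0.05 and a fold of at least 2) 5 of 15317 genes (0.0326%), 4 higher and 1 lower *in vitro*. At an unadjusted p under 0.05 stood 2 of the 10 members (*Mycn* and *Mxd3*) and 1799 of all genes (11.7%). DESeq2 called 0 members and 769 of the 8996 genes to which it gave an adjusted p. DESeq2 gave no adjusted p for 3 members (*Mycn*, *Mxd3* and *Mxi1*) here or in the stage comparison in culture, so it could not call them. The log2 fold change of *Max* was -0.89 (SE 1.72, adjusted p = 0.958 in edgeR), from 619 CPM ± 325 (SD, n = 3) *in vivo* to 333 ± 577 *in vitro*, where replicate 3 held 99.95% of the group's summed TPM. Without that library the log2 fold change was -11.17, and without either other *in vitro* library it was -0.31. The primordial *in vivo* libraries had also entered the choice of *Max*. *Mga* differed by -1.06 (SE 1.77, adjusted p = 0.928).

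The fitted log2 fold change of *Mycn* was 12.54 (SE 4.47, adjusted p = 0.359) and that of *Mycl* 7.46 (SE 4.13, adjusted p = 0.450), both against groups with 1 to 5 reads in all, so their size depends on the fit. Primordial *in vitro* replicate 1 held 97.7% of the group's summed TPM of *Mycn*, and without it the log2 fold change was 7.57. *Mxd3* had no read *in vivo*, and *in vitro* it averaged 5.99 CPM ± 10.4 (SD, n = 3). This is at least 45.4-fold higher than 3 reads per library, but all of its reads came from replicate 1 (edgeR adjusted p = 0.359). *Mxd1* was the 1 member whose groups did not overlap, as for 6.59% of all genes, with 8.52 CPM ± 6.47 *in vitro* and 0.466 ± 0.239 *in vivo* (edgeR adjusted p = 0.654).

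The stage comparison in culture, primary minus primordial *in vitro*, also called none of the members, nor any of the 15317 genes (0%). No member and 1673 genes (10.9%) had an unadjusted p under 0.05 in edgeR. DESeq2 called 0 of the 7 members and 423 of the 8471 genes to which it gave an adjusted p. *Max* was 595 CPM ± 559 (SD, n = 3) in primary and 333 ± 577 in primordial libraries, a log2 fold change of 0.84 (SE 1.72, adjusted p = 1 in edgeR), and its primary *in vitro* libraries had also entered the choice. It was 11.13 without primordial *in vitro* replicate 3 and -0.27 without primary *in vitro* replicate 2. *Mga* differed by -1.48 (SE 1.79, adjusted p = 0.907). *Mxd1* was again the 1 member without overlap, as for 11.2% of all genes, and lower in primary libraries, at 0.631 CPM ± 0.0770 against 8.52 ± 6.47 (edgeR adjusted p = 0.777).

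In MII oocytes, 8 members had at least 10 reads over the 6 libraries and were tested, and *Myc* and *Mycn* were not. edgeR's quasi-likelihood test called none of the 8, against 60 of 17144 genes (0.35%), 49 of them higher *in vitro*. At an unadjusted p under 0.05 stood 2 members (*Mycl* and *Mxd4*) and 1743 genes (10.2%). DESeq2 called 1 of the 8 members, *Mycl*, and 365 of the 14865 genes to which it gave an adjusted p. *Mycl* was the 1 member whose groups did not overlap, as for 16.2% of all genes. *In vitro* it averaged 3.70 CPM ± 4.24 (SD, n = 3), at least 10.8-fold higher than 3 reads per library, with an adjusted p of 0.160 in edgeR and 0.0028 in DESeq2, and 2 of 12 alternatives called it (adjusted p 0.0028 to 0.640). Replicate 1 held 74 of its 98 reads, and without it the mean was 1.26 CPM, at least 3.67-fold higher (edgeR adjusted p = 0.551). Granulosa cell markers passed 3 reads in 5 to 7 of 11 genes *in vitro* and in 3 to 4 *in vivo*, with a summed level of 30.25 to 62.5 TPM against 38.4 to 76.5 TPM. *Foxl2*, *Amhr2* and *Fst* had no read in any MII library, and *Kitl*, *Cyp19a1* and *Nr5a2* had reads in all of them. *Inhba* had none *in vivo* and reads in all 3 *in vitro* libraries. *Inha*, *Amh* and *Hsd17b1* also had none *in vivo* and had reads in at least 1 *in vitro* library. *Fshr* had reads in replicate 3 *in vivo* and in all *in vitro* libraries. The summed level of the 10 oocyte markers was 5925 to 9401 TPM *in vitro* and 10140 to 15390 TPM *in vivo*, without overlap. The part of both marker lists in the *Mycl*, *Ccnd2* and *Ddx4* values given here and further on was not tested.

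*Mxd4* was 7.17 CPM ± 2.50 (SD, n = 3) *in vitro* and 19.4 ± 14.1 *in vivo* in MII oocytes, a log2 fold change of -1.44 (SE 0.66) that did not pass (edgeR adjusted p = 0.487). *Mxd1* was 341 CPM ± 65.9 *in vitro* and 272 ± 58.9 *in vivo* (log2 fold change 0.32, SE 0.32, edgeR adjusted p = 0.778). *Max* was 14.05 CPM ± 7.08 *in vitro* and 18.5 ± 11.9 *in vivo* (log2 fold change -0.40, SE 0.57, edgeR adjusted p = 0.871), and *Mga* 18.4 ± 5.67 and 23.3 ± 2.70 (log2 fold change -0.34, SE 0.44, edgeR adjusted p = 0.852). The SEs of *Max* and *Mga* were 0.57 and 0.44 here, against 1.72 and 1.77 for ovary culture at the primordial stage.

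**Figure D4:**
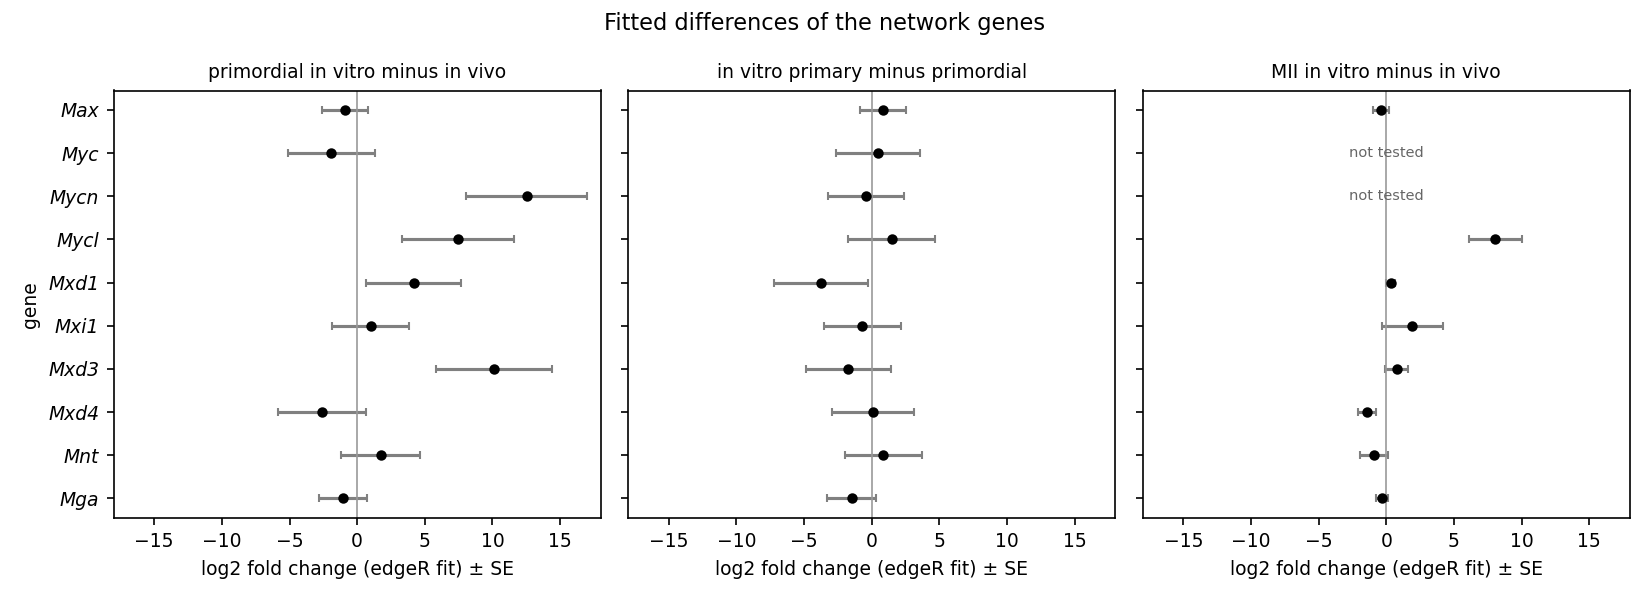
Points give the log2 fold change of the edgeR fit for each gene in the 3 comparisons that did not serve to choose the genes, with approximate SEs as bars. No gene passed the call rule in any of the 3, the bars are widest for genes with a group near 0 reads, and *Myc* and *Mycn* could not be tested in MII oocytes.

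The pattern of *Max* over the 12 microdissected libraries was most like those of *Nsmce4a* (Pearson r = 0.967 on log2 CPM), *Mpp5* (0.965), *Abraxas2* (0.953), *Gnpat* (0.918) and *Far1* (0.913), among the 15317 genes tested. These r values are descriptions of points that share libraries and depth. NSMCE4A belongs to the SMC5/6 complex, MPP5 is a cell polarity scaffold, ABRAXAS2 is the scaffold of the BRISC deubiquitinase, GNPAT is a peroxisomal acyltransferase and FAR1 is a fatty acyl-CoA reductase. In the 3 primordial *in vivo* and 3 primary *in vitro* libraries the 5 genes had 29 to 17206 reads. In primary *in vivo* *Nsmce4a* had at most 2 reads and *Mpp5* at most 1, whereas *Far1* had 531 reads in replicate 2. In MII oocytes *Nsmce4a* had 370 to 1600 reads and *Far1* 215 to 789.

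No other network member followed *Max* as closely. The r with *Max* was 0.581 for *Mxi1*, 0.259 for *Mycl*, 0.219 for *Myc*, 0.213 for *Mycn*, 0.209 for *Mxd4*, 0.130 for *Mga*, 0.042 for *Mxd1*, 0.018 for *Mnt* and -0.277 for *Mxd3*. *Mxi1* ranked 835th and the other members 5783rd or lower among all genes by this measure.

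**Figure D5:**
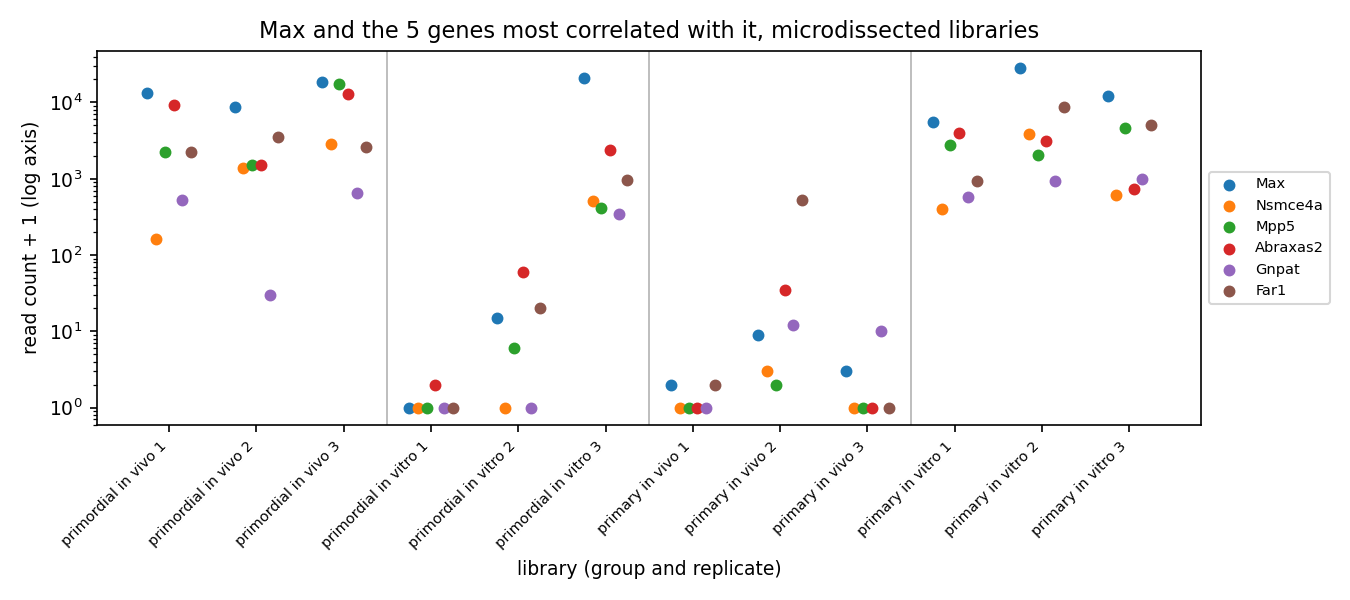
Read counts plus 1, on a log axis, of *Max* and the 5 genes most correlated with it in the 12 microdissected libraries. All 6 genes lie under 100 reads in primordial *in vitro* replicates 1 and 2 and in primary *in vivo*, apart from *Far1* at 531 reads in 1 library, and *Max* is at 5471 reads or more in the other 7 libraries.

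The factors that work with the network were described as 7 lists with 77 genes, all of them in the files. Of the 41 genes in the 5 lists of cofactors, none was called in the 3 comparisons that did not serve to choose the genes. At an unadjusted p under 0.05 stood 5 of the 41 for ovary culture at the primordial stage (12.2%, against 11.7% of all genes), 2 for stage in culture (4.88%, against 10.9%) and 5 in MII oocytes (12.2%, against 10.2%). The list medians of the log2 fold change lay from -1.82 (MYC stability factors and partners) to 2.66 (MLX branch) for ovary culture at the primordial stage, beside 0 over all genes, from -1.07 to 1.28 for stage in culture, beside 0.44, and from -0.29 to 0.73 in MII oocytes, beside 0.04. With genes that had no read in one group set at their limit, the median of the PRC1.6 list became 0 at the primordial stage and 0.32 in MII oocytes.

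Abundant genes of each list in microdissected oocytes show the level of the machinery around *Max*. *Mlx*, which encodes the MAX-like partner of a parallel network, was at 0 to 368 TPM in microdissected libraries and 47.0 to 133 TPM in MII libraries, and its partner *Mlxip* ranged from 0.276 to 109 TPM and from 21.4 to 53.5 TPM. The MYC co-activator *Trrap*, a scaffold of histone acetyltransferase complexes, was at 57.6 to 231 TPM in all microdissected libraries and at 3.72 to 8.97 TPM in MII libraries. *Trrap* had no microdissected library under 57.6 TPM, also where *Max* was near 0.

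Of the co-repressors, *Sin3a*, the scaffold that MXD proteins recruit, ranged from 10.2 to 443 TPM in microdissected and 164 to 456 TPM in MII libraries, and the histone-binding *Rbbp7* from 64.3 to 1493 TPM and from 1829 to 5500 TPM. In the PRC1.6 list, the ubiquitin ligase gene *Rnf2* ranged from 5.64 to 1759 TPM and *Rybp* from 0 to 1288 TPM in microdissected libraries, and *Rybp* stayed at or under 15.3 TPM in MII oocytes. *Huwe1*, the gene of a ubiquitin ligase that acts on MYC proteins, was at 311 to 1105 TPM in microdissected libraries and 5.16 to 14.5 TPM in MII libraries. *Mycbp2* was at 18.3 to 363 TPM and 36.7 to 73.2 TPM. These differences between microdissected and MII libraries share the difference in kits named above.

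Among 25 MYC target genes, 1 was called in these 3 comparisons, in MII oocytes, where 24 were tested and 0.35% of all genes were called. The list medians were 0.69 for ovary culture at the primordial stage (0.36 with genes at 0 set at their limit), beside 0 over all genes, 0.29 for stage in culture, beside 0.44, and -0.03 in MII oocytes, beside 0.04. The called gene was *Ccnd2*, a cyclin of the G1 phase, with 1, 0 and 0 reads *in vivo* and 111, 128 and 63 reads *in vitro* (edgeR adjusted p = 0.0080). The groups did not overlap, and the ratio of normalized counts was 284 (95% exact counting interval 50.5 to 11238, for counting error only). Its call was lost in 6 of 13 alternatives (adjusted p 7.7e-07 to 0.297), among them those without MII *in vivo* replicate 3 (0.0573) and without MII *in vitro* replicate 1 (0.0949), replicate 2 (0.0788) or replicate 3 (0.0540). The nucleolar protein gene *Npm1* was at 223 to 1183 TPM in microdissected and 473.5 to 752 TPM in MII libraries, and the mitochondrial chaperone gene *Hspd1* at 24.2 to 3175 TPM and 51.15 to 177 TPM.

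Of 11 germline genes bound by MAX, MGA and PRC1.6 in embryonic stem cells, 8 were tested and 1 was called, in MII oocytes (0.35% of all genes). It was *Ddx4*, which encodes a germ cell RNA helicase. In MII oocytes it had 373, 120 and 244 reads *in vivo* (34.8, 13.35 and 23.9 TPM) and 2769, 3906 and 2661 reads *in vitro* (217, 368 and 271 TPM). All 3 *in vitro* libraries were higher, with 329 CPM ± 36.2 (SD, n = 3) against 28.0 ± 15.3 and a log2 fold change of 3.55 (SE 0.43, edgeR adjusted p = 0.0021), and the call held in all 13 alternatives. In the same libraries the log2 fold change was -0.40 (SE 0.57) for *Max* and -0.34 (SE 0.44) for *Mga*. A link of either gene to the *Ddx4* level was not tested. In microdissected libraries *Ddx4* ranged from 5.06 to 1011 TPM and *Mael*, a gene of the piRNA pathway, from 1.47 to 1494 TPM, and neither was called. The list medians were -0.40 for ovary culture at the primordial stage and -0.74 for stage in culture, or -0.80 and -1.16 with genes at 0 set at their limit, beside 0 and 0.44 over all genes, and 0.02 in MII oocytes, beside 0.04.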

How the data were processed

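The members and gene lists were chosen with earlier results of these data known. The authors trimmed reads with Trim Galore (0.4.1), aligned them with TopHat2 (mm10) and used featureCounts to count reads per gene. They deposited these counts without normalization, and TPM values, scaled by the authors for gene length and library size, for 52.6% of the genes. RNA of microdissected oocytes was linearly amplified (Ovation PICO) and prepared with TruSeq RNA Access, and that of MII oocytes with Smart-seq II. The treatment of strand and of reads with several matches is not given in the sources used here. Groups came from the sample labels.

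Counts were tested with edgeR 4.0.16 (R 4.3.3; TMM, glmQLFit robust, glmQLFTest, genes with at least 10 counts in total), with one model for the 12 microdissected libraries and one for the 6 MII libraries, and Benjamini-Hochberg adjustment over all genes tested. A gene was called at an adjusted p under 0.05 and a fold of at least 2. SEs are the fold change divided by the root of F and approximate. A fold against a group at 0 was taken against 3 reads per library. An exact permutation test of 3 against 3 libraries cannot go below p = 0.1. Alternatives were DESeq2 1.42.0, its size factors, other filters, limma 3.58.1 on log2(TPM + 1) and log2(TPM + 0.1), a replicate block, fits of 2 groups, and leaving out each library. Named genes were the 10 members, the 5 genes most correlated with *Max* on log2 CPM (prior count 2), and of each list the called genes and the 2 highest by mean TPM in microdissected libraries, of which 1 is not reported here. Gene positions are from GENCODE on GRCm38, promoters from RefSeq.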

Additional observations from a re-analysis of the deposited data

How the results depend on the processing

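No network gene was called in the microdissected comparisons of ovary culture at the primordial stage and of stage in culture, under any of 15 alternatives each, though the DESeq2 one gave no adjusted p for *Mycn*, *Mxd3* and *Mxi1*. In MII oocytes 1 gene, *Mycl*, was called by DESeq2 and when all genes with at least 1 count were tested, and 0 under the 12 other alternatives. Calls of the members in the 2 contrasts that chose *Max* are not given under any alternative. The 16 fitted log2 fold changes followed here include *Max* and *Mga* for primary minus primordial *in vivo*. They also include *Max* and *Mycn* for primary *in vitro* minus *in vivo*. Those contrasts chose *Max*, so nothing is read from the steadiness of their signs. Of 217 alternative values of the 16, 3 changed sign, all in the other comparisons. They were *Mycl* at the primordial stage without primordial *in vitro* replicate 3 (-0.10), *Max* for stage in culture without primary *in vitro* replicate 2 (-0.27) and *Max* in MII oocytes without MII *in vivo* replicate 2 (0.26), whose values without 1 library ranged from -0.90 to 0.26. *Mycl* in MII oocytes moved past the threshold with DESeq2 (7.46) and with all genes of at least 1 count (8.07), from 8.07 in the edgeR fit. *Mxd3* gave no value without primordial *in vitro* replicate 1, since both groups were then at 0.

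The counts of all genes called moved more. DESeq2 called 769, 423 and 365 genes (ovary culture at the primordial stage, stage in culture, MII) where edgeR called 5, 0 and 60. It gave an adjusted p to 8996, 8471 and 14865 genes, in the same order. Testing all genes of at least 1 count gave 263 calls in MII oocytes and 0 in both microdissected comparisons, and limma on log2(TPM + 1) gave 29 and on log2(TPM + 0.1) 42 in MII oocytes. Without 1 library, MII calls ranged from 11 to 378. With DESeq2's size factors, the median log2 fold change of all genes went from 0.439 to 0.214 for stage in culture. For culture at the primary stage the median went from 0.436 to 0.17.

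Replicate numbers are shared between groups but are not stated to mark a shared animal or batch, so same-numbered libraries were not treated as pairs. Their deviations from the group means had correlations of -0.023 to 0.080. With detection as uneven as in the microdissected groups, such values cannot show whether animals were shared. With a replicate block, 0 members were called in each of the 3 comparisons, and 1, 0 and 85 genes in all, in the order above. The log2 fold change of *Max* with the block was -2.59 for ovary culture at the primordial stage and 2.25 for stage in culture. Limma gave -5.54 on log2(TPM + 1) and -7.10 on log2(TPM + 0.1) for the former and 5.40 and 6.96 for the latter, against -0.89 and 0.84 in edgeR.

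Depth was 15149564 reads or more in each microdissected library and 7334817 or more in each MII library, and in both a level under 3 reads lay within what a count of 0 allows. The SE of the log2 fold change of *Max* was 1.72 for ovary culture at the primordial stage and 0.57 in MII oocytes.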
